A study of Mus musculus with 12 samples.

Results

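The Zscan4 family was followed through 12 RNA-seq libraries of mouse embryonic stem (ES) cells. Its members were taken by name: of the 54446 genes listed in each library, 9 had a symbol beginning with Zscan4, namely the 6 lettered genes Zscan4a to Zscan4f and the 3 copies Zscan4-ps1, Zscan4-ps2 and Zscan4-ps3. The libraries came from 2 lines, KH and DNMT3ABKO, collected before treatment (0 h) and after 72 h and 144 h in INK128, with 2 libraries in each of the 6 groups. INK128 blocks mTOR, the growth-controlling kinase, and mTOR inhibition (mTORi) puts ES cells in a dormancy like that of blastocysts in diapause. KH is the control line, which the study calls wild type. DNMT3ABKO cells carry knockouts of Dnmt3a and Dnmt3b, the de novo DNA methyltransferases. The labels put E14 in front of both line names, whereas the study's methods describe the control as KH2 and grow both it and the Dnmt3a/b knockout on mitomycin-treated feeders, a layer of cells whose type the methods do not name, with viable cells sorted before RNA extraction. Each genotype was 1 line, so genotype cannot be told apart from other differences between the lines. No untreated culture was sampled at 72 h or 144 h, so the drug cannot be told apart from time in culture. The study states that its experiments were done at least 2 times and speaks of biological replicates, but the labels do not say whether the 2 libraries of a group were separate cultures, and if they were not, p-values measure a technical spread.

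Zscan4 genes encode proteins with a SCAN domain, through which such proteins pair, and C2H2 zinc fingers, which bind DNA. In the mouse they are transcribed in a burst at the 2-cell stage, and in ES cell cultures they are switched on for short periods in a small fraction of cells, often called 2-cell-like cells. They are known for lengthening telomeres by recombination, and for a transient loss of DNA methylation in the cells that express them. Zscan4c is known as the main form in ES cells and Zscan4d as the main form in 2-cell embryos. In bulk RNA, more Zscan4-positive cells and more Zscan4 RNA per positive cell cannot be told apart.

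All values are in TPM, the number of transcripts of a gene per fixed total, scaled for transcript length. They are shares of a library's RNA, and as such can be compared between genes and between libraries. With added control RNAs as a reference, the study reports that transcription fell globally in mTORi, also in Dnmt3a/b knockout cells. A change in TPM is thus no measure of a change in RNA per cell. TPM retains no read depth, so depth is unknown and no counting error is given. Between 15178 and 15811 genes per library reached 1 TPM. As a check of the line labels, Dnmt3b stood between 145 and 257 TPM in the KH groups (means of 2 libraries) and between 12.9 and 26.9 TPM in the DNMT3ABKO groups, and Dnmt3a between 56.2 and 109.9 TPM and between 9.45 and 19.4 TPM, so both transcripts were low but still counted in the knockout. The 2 DNMT3ABKO libraries at 0 h differed from each other more than other replicates did (median SD over genes 0.15 on the log2 scale, against 0.05 to 0.09 in the other 5 groups), and each count of members called in a comparison with that group was 9 without either library. All 10 ES cell markers checked, Pou5f1, Sox2 and Nanog among them, were above 1 TPM in every library, and their summed level went from between 4481 and 4778 TPM at 0 h to between 6955 and 7067 TPM at 144 h in KH cells, and from between 4501 and 4561 TPM to between 6978 and 7024 TPM in DNMT3ABKO cells. The summed level of 10 fibroblast markers went down in parallel, from between 1463 and 1564 TPM to between 479 and 567 TPM in KH cells and from between 1682 and 1803 TPM to between 321 and 333 TPM in DNMT3ABKO cells, and at least 8 of the 10 stayed above 1 TPM in every library. The summed level of 6 macrophage markers also went down, from between 209 and 262 TPM at 0 h to between 19.5 and 33.3 TPM at 144 h over both lines. Their part in the changes between time points given below was not tested, beyond the scaling to ES cell markers.

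The 9 members lay in 1 cluster on chromosome 7 of the mm10 build, from 10794242 to 11614112, a span of 819.9 kb. In order of position they were Zscan4a (10794242 to 10799057, minus strand), Zscan4b (10900740 to 10905050, minus), Zscan4c (11005745 to 11010547, plus), Zscan4-ps1 (11065139 to 11069691, minus), Zscan4d (11161374 to 11166159, minus), Zscan4e (11306378 to 11310682, minus), Zscan4f (11397915 to 11402318, plus), Zscan4-ps2 (11514310 to 11519111, plus) and Zscan4-ps3 (11609308 to 11614112, plus). Every member had 4 exons in its longest transcript in the GENCODE M21 annotation, whose coordinates for the 9 genes were identical to those in the files. That annotation calls Zscan4a an unprocessed pseudogene and gives the other 8, the -ps copies included, a coding sequence of 505 or 506 codons. The RefSeq promoters on GRCm38.p6 that were at hand covered only Zscan4b, Zscan4c, Zscan4d and Zscan4f.

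The RefSeq promoters of those 4 members are shown because they let the family's regulatory sequence be read beside its levels. Each is the 250 bases before the RefSeq gene start on GRCm38.p6, written 5′ to 3′ along the strand of the gene, and capitals mark CpG dinucleotides, the sites that Dnmt3a and Dnmt3b methylate, and the TATA box motif TATAAAA. The Zscan4b window is chr7:10905051-10905300 (minus strand), the Zscan4c window chr7:11005495-11005744 (plus), the Zscan4d window chr7:11166149-11166398 (minus) and the Zscan4f window chr7:11397665-11397914 (plus).
Zscan4b: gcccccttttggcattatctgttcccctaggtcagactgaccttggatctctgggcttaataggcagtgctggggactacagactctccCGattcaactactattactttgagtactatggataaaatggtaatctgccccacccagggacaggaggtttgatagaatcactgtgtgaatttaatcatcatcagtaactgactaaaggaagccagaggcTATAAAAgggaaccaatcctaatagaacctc
Zscan4c: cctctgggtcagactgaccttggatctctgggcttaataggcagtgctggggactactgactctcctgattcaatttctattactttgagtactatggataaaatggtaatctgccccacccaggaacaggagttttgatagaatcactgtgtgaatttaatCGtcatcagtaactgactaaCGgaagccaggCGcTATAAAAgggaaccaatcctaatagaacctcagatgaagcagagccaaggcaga
Zscan4d: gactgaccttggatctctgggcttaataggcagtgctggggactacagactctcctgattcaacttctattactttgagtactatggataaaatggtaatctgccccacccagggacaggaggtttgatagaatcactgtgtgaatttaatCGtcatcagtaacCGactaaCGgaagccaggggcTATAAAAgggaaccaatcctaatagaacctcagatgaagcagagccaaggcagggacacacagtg
Zscan4f: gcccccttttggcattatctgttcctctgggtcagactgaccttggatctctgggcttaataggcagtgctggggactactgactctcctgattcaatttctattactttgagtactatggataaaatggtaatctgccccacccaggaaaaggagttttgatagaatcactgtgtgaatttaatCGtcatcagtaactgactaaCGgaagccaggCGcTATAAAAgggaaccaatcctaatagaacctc

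The 4 windows were near copies of each other. Identity over the aligned bases ran from 94.7% between Zscan4b and Zscan4c to 99.6% between Zscan4c and Zscan4f, which differed at 1 of 227 bases. They were poor in CpG: Zscan4c, Zscan4d and Zscan4f held 3 each and Zscan4b held 1, against a median of 6 (quartiles 2 and 16) over the 32851 RefSeq promoter windows of the same length. At most 3 CpG were found in 37.8% of all windows, so these 4 windows were in the lower part of the distribution but not at its end. TATAAAA was present in all 4, starting 31 bases before the gene start in Zscan4b and Zscan4f, 54 bases before it in Zscan4c and 65 bases before it in Zscan4d, and was present on either strand in 4.98% of all windows.

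4 further motifs were searched on both strands. The full motif of the 2-cell-stage activator Dux was in none of the 4 windows and in 0.0304% of all windows, while its first 8 letters, TGATTCAA, were in Zscan4c, Zscan4d and Zscan4f (0.539% of all windows). TGCACAC, described for the ZSCAN4 protein itself, was in none of the 4 (3.67% of all windows), and neither was TGACGTCA, the cAMP response element (1.55%). The 2 searches for Dux letters overlap. DNA methylation at these CpG sites was not analysed here.

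The transcripts were as alike as the promoters, which bears on every value for a single member. Over the 36 pairs of longest transcripts, identity over the aligned bases ran from 96.6% (Zscan4b and Zscan4d) to 99.8% (Zscan4f and Zscan4-ps2), with a median of 97.5%. The share of 100-base windows found in no other member was 76.6% for Zscan4-ps1, 70.4% for Zscan4d, 60.9% for Zscan4a and 47.8% for Zscan4-ps3. It was 27.2% for Zscan4c, 25.4% for Zscan4-ps2, 21.3% for Zscan4b, 15.9% for Zscan4e and 10.5% for Zscan4f. A read from Zscan4-ps3 or from the last 5 fits several members more often than not. The level of any 1 of these depends on how the authors' quantification placed such reads and is uncertain. The summed TPM of the 9, the family sum, is therefore given beside the members throughout.

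The family sum was low in KH cells and high in DNMT3ABKO cells at every time point. In KH cells it was 2.94 and 4.25 TPM at 0 h, 1.19 and 1.33 TPM at 72 h, and 15.1 and 11.6 TPM at 144 h. In DNMT3ABKO cells it was 89.1 and 108 TPM at 0 h, 244 and 241 TPM at 72 h, and 1109.8 and 1161 TPM at 144 h. The lowest DNMT3ABKO library was thus above the highest KH library whatever the time, and within each line no library of 1 time point overlapped those of another. Had the family been 1 gene, it would have stood at rank 12132 and 11219 of all listed genes in the KH libraries at 0 h, at 14941 and 14682 at 72 h and at 6993 and 7895 at 144 h. In DNMT3ABKO cells the corresponding ranks were 1383 and 1253, then 449 and 454, then 108 and 98.

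**Figure D1:**
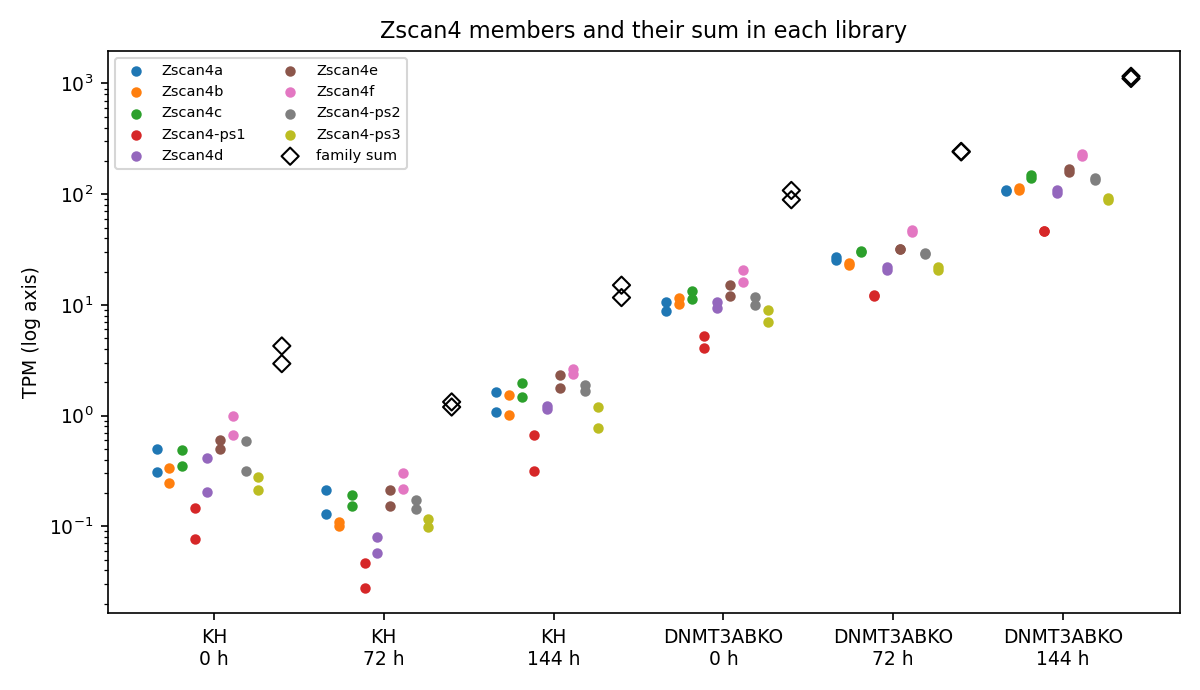
TPM on a log axis of the 9 Zscan4 members (coloured dots, 1 per library) and of their sum (open diamonds) in the 6 groups of 2 libraries. All members move together: in KH cells they are lowest at 72 h and highest at 144 h, in DNMT3ABKO cells they are higher at each later time, and the family sum runs from 1.19 TPM (KH, 72 h) to 1161 TPM (DNMT3ABKO, 144 h).

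The same course was seen in each member. Zscan4f, the member with the highest mean in all 6 groups, stood at 0.672 and 0.986 TPM in KH cells at 0 h, 0.216 and 0.305 TPM at 72 h and 2.64 and 2.37 TPM at 144 h, and at 16.1 and 20.5, 47.5 and 45.7, and 222 and 232 TPM in DNMT3ABKO cells at the same times. Zscan4e, the second highest in every group, stood at 0.494 and 0.597, 0.213 and 0.152, and 2.32 and 1.78 TPM in KH cells, and at 12.1 and 15.1, 32.1 and 31.8, and 159.5 and 169.7 TPM in DNMT3ABKO cells. Zscan4c, known as the ES cell form, stood at 0.350 and 0.487, 0.190 and 0.153, and 1.97 and 1.48 TPM in KH cells, and at 11.4 and 13.4, 30.6 and 30.2, and 141 and 149 TPM in DNMT3ABKO cells. Zscan4f did not overlap Zscan4e in any of the 6 groups, whereas Zscan4e overlapped the member after it in all 3 KH groups and in DNMT3ABKO cells at 0 h.

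The 3 members whose sequence was mostly their own behaved like the rest. Zscan4d, known as the 2-cell embryo form, stood at 0.204 and 0.414 TPM in KH cells at 0 h, 0.0569 and 0.0807 TPM at 72 h and 1.22 and 1.15 TPM at 144 h, and at 9.34 and 10.6, 21.9 and 20.6, and 103 and 109 TPM in DNMT3ABKO cells. Zscan4-ps1, the lowest member in every group, stood at 0.0763 and 0.146, 0.0279 and 0.0468, and 0.674 and 0.317 TPM in KH cells, and at 4.05 and 5.29, 12 and 12.4, and 46.8 and 46.2 TPM in DNMT3ABKO cells. Zscan4a, annotated as a pseudogene in GENCODE M21, stood at 0.311 and 0.496, 0.129 and 0.210, and 1.65 and 1.09 TPM in KH cells, and at 8.81 and 10.7, 25.5 and 26.9, and 108 and 110.1 TPM in DNMT3ABKO cells. For each of these 3 the KH libraries at 72 h were the lowest of the 12 and the DNMT3ABKO libraries at 144 h the highest.

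The remaining 3 members lay between these. Zscan4b stood at 0.245 and 0.333, 0.101 and 0.109, and 1.53 and 1.01 TPM in KH cells, and at 10.3 and 11.6, 23.8 and 22.8, and 109 and 114 TPM in DNMT3ABKO cells. Zscan4-ps2 stood at 0.314 and 0.584, 0.143 and 0.173, and 1.88 and 1.67 TPM in KH cells, and at 9.90 and 11.8, 29.4 and 28.6, and 134 and 139.9 TPM in DNMT3ABKO cells. Zscan4-ps3 stood at 0.278 and 0.211, 0.117 and 0.0982, and 1.18 and 0.771 TPM in KH cells, and at 7.07 and 9.08, 20.7 and 21.8, and 87.9 and 92.1 TPM in DNMT3ABKO cells. No member was listed at 0 in any library, but every member was under 1 TPM in all 4 KH libraries at 0 h and 72 h.

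Each member's share of the family sum was compared because it does not depend on the family's overall level. Zscan4f held between 18.5% ± 0.63 (SD, n = 2, DNMT3ABKO, 0 h) and 23.0% ± 0.26 (KH, 0 h), Zscan4e between 13.2% and 15.4%, and Zscan4c between 11.7% and 13.7% as group means. Zscan4-ps1 held between 2.9% and 5.0%. The 3 -ps copies together rose in proportion to the 6 lettered genes: in DNMT3ABKO cells they summed to 21.0 and 26.2 TPM at 0 h and to 269 and 278 TPM at 144 h, an 11.6-fold difference between the means, against 11.5-fold for the lettered genes. The share of Zscan4d was lowest in KH cells at 72 h, at 5.4% ± 0.93, and between 8.3% and 10.1% in the other groups. Shares in KH cells had an SD of up to 4.5 percentage points, whereas no share in DNMT3ABKO cells had an SD above 0.63, and at the low KH levels the order of most members was not resolved.

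**Figure D2:**
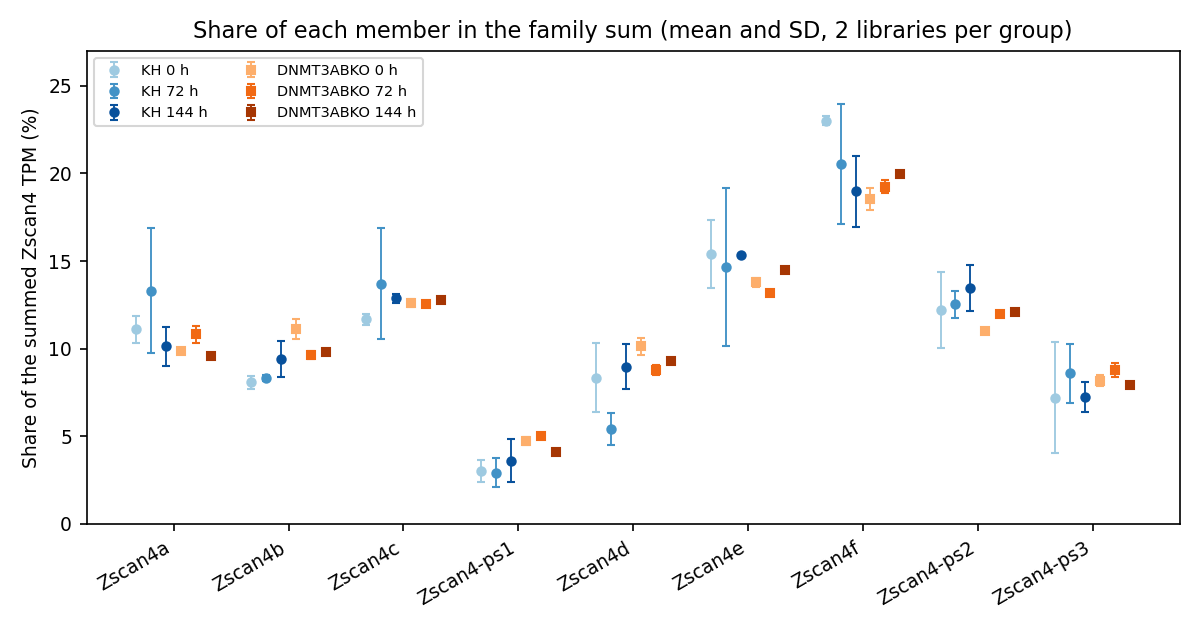
Share of the summed Zscan4 TPM held by each member, in order of position along chromosome 7 (mean and SD of 2 libraries, circles for KH and squares for DNMT3ABKO). Zscan4f holds the largest share, between 18.5% and 23.0%, and Zscan4-ps1 the smallest, between 2.9% and 5.0%, in all 6 groups.

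The lines were compared first, to see whether the family differed before treatment and at each time in mTORi. All 9 members were higher in DNMT3ABKO than in KH cells at 0 h, 72 h and 144 h, and both DNMT3ABKO libraries were above both KH libraries for each member each time, a separation in this direction seen for 17.0%, 30.1% and 29.7% of all tested genes. The family sum was 27.4-fold higher at 0 h, 192-fold higher at 72 h and 85.1-fold higher at 144 h (ratios of group means). Over single members the ratio ran from 22.1 (Zscan4f) to 41.9 (Zscan4-ps1) at 0 h, from 155 (Zscan4a) to 326 (Zscan4-ps1) at 72 h, and from 77.0 (Zscan4-ps2) to 93.9 (Zscan4-ps1) at 144 h.

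By limma on log2(TPM + 1), with Benjamini-Hochberg adjustment over all 15727 genes tested, 9 of 9 members were called higher (adjusted p under 0.05) in each of these 3 comparisons. Of all tested genes, 4.92% were called higher at 0 h, 9.26% at 72 h and 11% at 144 h. All 9 members passed the filter of a mean of 1 TPM over the 12 libraries, but over the 6 KH libraries alone only Zscan4f would have done so, so the members entered the test through the DNMT3ABKO libraries and their count is no support in itself. Without the filter 9 of 9 were also called in each of the 3. The differences on the log2(TPM + 1) scale ran from 2.34 (Zscan4-ps1) to 3.40 (Zscan4f) at 0 h. With the same members at the ends, they spanned 3.67 to 5.24 at 72 h and 5.0 to 6.02 at 144 h. Their SE was between 0.11 and 0.14, and the largest adjusted p of the 9 by limma was 4.52e-06 at 0 h, 6.87e-08 at 72 h and 2.54e-09 at 144 h. The median over all tested genes was -0.05, -0.04 and -0.04.

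The pseudocount understates these differences, because it is larger than most of the KH values. With a pseudocount of 0.1 TPM the median of the 9 members was 4.5 instead of 3.07 at 0 h, 6.82 instead of 4.54 at 72 h and 6.36 instead of 5.63 at 144 h. The largest gap between the lines was thus at 144 h with a pseudocount of 1 TPM, and at 72 h with 0.1 TPM or as a plain ratio of means. As a plain difference in TPM the gap between the mean family sums grew at each step, being 95.0 TPM before treatment, 241 TPM at 72 h and 1122 TPM at 144 h.

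**Figure D3:**
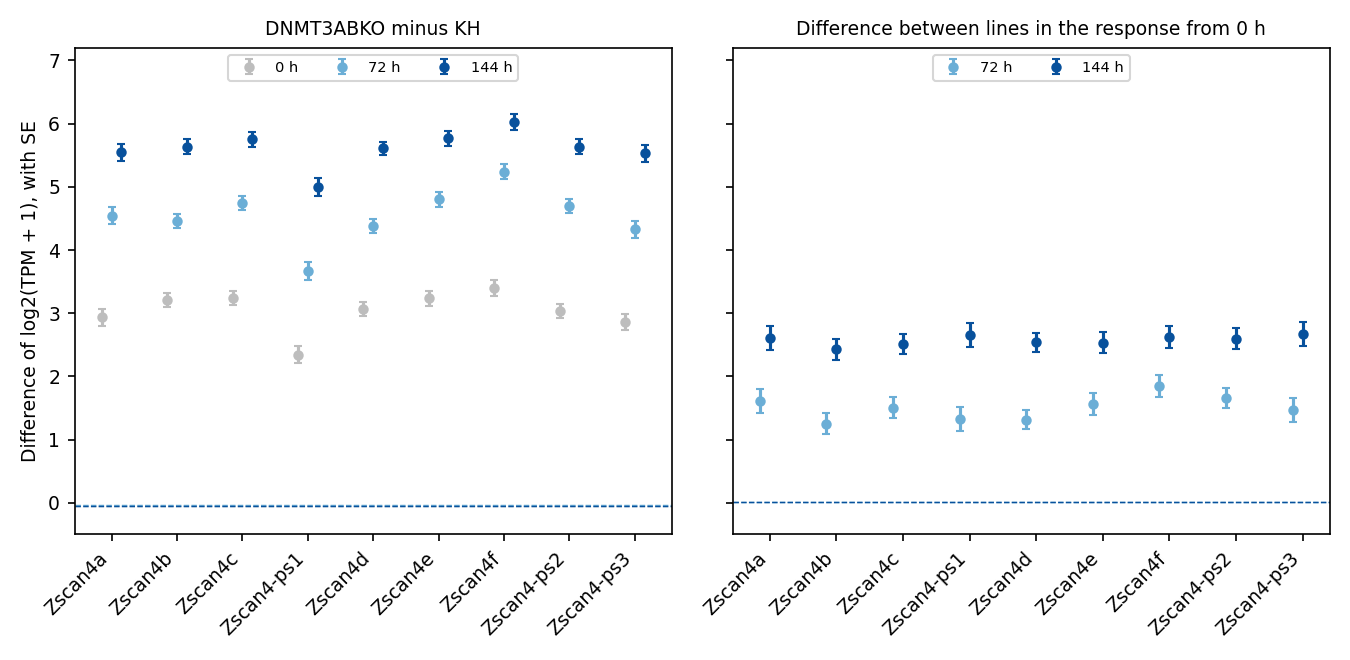
Differences of log2(TPM + 1) from limma with their SE for each member. Left: DNMT3ABKO minus KH at 0 h (grey), 72 h (light blue) and 144 h (dark blue), between 2.34 and 6.02. Right: DNMT3ABKO response minus KH response from 0 h, between 1.25 and 1.84 at 72 h and between 2.43 and 2.67 at 144 h. Dashed lines are the medians over all 15727 tested genes, which lie near 0.

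In KH cells the family was lower after 72 h in mTORi than before it, and after 144 h it was higher than at either earlier time. The family sum at 72 h was 0.350 of that at 0 h, and all 9 members had both 72 h libraries below both 0 h libraries, a separation seen in this direction for 32.0% of all tested genes. By limma 4 of the 9 were called lower: Zscan4f (log2 difference -0.53, adjusted p = 0.00564), Zscan4e (-0.39, adjusted p = 0.0235), Zscan4-ps2 (-0.32, adjusted p = 0.0444) and Zscan4d (-0.29, adjusted p = 0.0453), with 19.5% of all tested genes called lower. The other 5 differed by between -0.27 (Zscan4c, adjusted p = 0.0727) and -0.10 (Zscan4-ps1, adjusted p = 0.588). Since the members share reads, these counts are no support in themselves. The number called was also not stable: 8 members were called with a pseudocount of 0.1 TPM, and 1 without the filter on low values. It was also 1 without the second KH library at 0 h, and 1 without either KH library at 72 h.

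At 144 h all 9 members were called higher than at 0 h and higher than at 72 h in KH cells by limma, where 27.4% and 7.24% of all tested genes were called higher. Since the members share reads, the count is no support in itself. The family sum was 3.71-fold that at 0 h and 10.6-fold that at 72 h. Differences on the log2(TPM + 1) scale ran from 0.42 (Zscan4-ps1, adjusted p = 0.0275) to 0.98 (Zscan4e, adjusted p = 0.000102) against 0 h and from 0.52 (Zscan4-ps1, adjusted p = 0.0229) to 1.48 (Zscan4f, adjusted p = 2.66e-05) against 72 h. With a pseudocount of 0.1 TPM the median of the 9 moved from 0.81 to 1.70 against 0 h and from 1.03 to 2.74 against 72 h. Without the filter, Zscan4-ps1 was no longer called (adjusted p = 0.066 and 0.0621), and 8 members were. At its KH maximum the family was still far below its DNMT3ABKO minimum: the highest KH library at 144 h summed to 15.1 TPM and the lowest DNMT3ABKO library at 0 h to 89.1 TPM.

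In DNMT3ABKO cells the family rose at both steps. The family sum was 2.46-fold higher at 72 h than at 0 h, 4.69-fold higher at 144 h than at 72 h, and 11.5-fold higher over the whole course. All 9 members were called higher in the 3 comparisons by limma, where 34.3% of all tested genes were called higher at the first step, 8.81% at the second and 31.4% over the whole course. The members entered the test through these DNMT3ABKO libraries and share reads, so the count is no support in itself. The differences on the log2(TPM + 1) scale ran from 1.03 (Zscan4d) to 1.35 (Zscan4a) at the first step, from 1.85 (Zscan4-ps1) to 2.33 (Zscan4e) at the second, and from 3.08 (Zscan4-ps1) to 3.57 (Zscan4f) over the whole course. The largest adjusted p of the 9 by limma was 5.61e-05, 7.47e-06 and 5.04e-08. The family sum of the lines thus went in opposite directions at the first step, down in KH and up in DNMT3ABKO cells, although in KH cells only 4 members passed the test.

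Because the summed ES cell markers went up in both lines while the fibroblast markers went down, the family sum was also divided by the summed TPM of the 10 ES cell markers, a scaling chosen after the values were seen. Per 1000 TPM of ES cell markers the family stood at 0.657 and 0.890 TPM in KH cells before treatment, 0.173 and 0.197 TPM at 72 h and 2.13 and 1.67 TPM at 144 h. In DNMT3ABKO cells it stood at 19.8 and 23.7, then 37.1 and 36.5, then 158 and 166. On this scale too the groups did not overlap and each change had the same direction, with a log2 difference from 0 h to 144 h of 1.30 in KH cells and 2.90 in DNMT3ABKO cells, against 1.90 and 3.53 without the scaling.

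**Figure D4:**
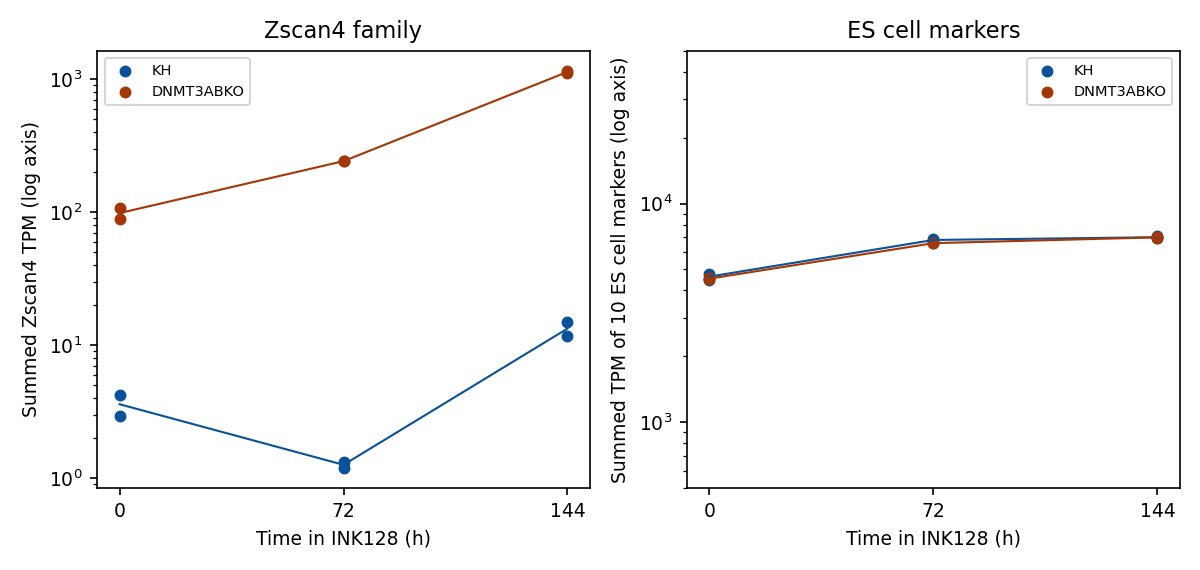
Left: summed Zscan4 TPM against time in INK128. Right: summed TPM of 10 ES cell markers. Both on log axes, dots are libraries and lines join the means of 2, KH in blue and DNMT3ABKO in brown. The marker sums of the lines lie on top of each other, between 4481 and 7067 TPM, while the Zscan4 sums differ by 27.4-fold to 192-fold.

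The difference between the lines in their response to mTORi was tested as an interaction. The DNMT3ABKO response exceeded the KH response for all 9 members at 72 h and at 144 h, and 9 of 9 were called at both times by limma, where 3.38% and 4.89% of all tested genes were called in this direction. All but Zscan4f entered this test only through the DNMT3ABKO libraries, and the members share reads, so the count is no support in itself. Without the filter on low values 9 of 9 were also called at both times. At 72 h the difference in response ran from 1.25 (Zscan4b, SE 0.17, adjusted p = 0.00233) to 1.84 (Zscan4f, SE 0.17, adjusted p = 0.000561) on the log2(TPM + 1) scale. At 144 h it ran from 2.43 (Zscan4b, SE 0.17, adjusted p = 5.78e-06) to 2.67 (Zscan4-ps3, SE 0.18, adjusted p = 6.28e-06). The pseudocount decides these sizes. With 0.1 TPM the 72 h median of the 9 rose from 1.51 to 2.32 and the 144 h median fell from 2.60 to 1.85, so that the order of the 2 times turned around, and 9 of 9 were still called at each. In the family sum without a pseudocount the difference in response was 2.79 ± 0.44 at 72 h and 1.63 ± 0.50 at 144 h (log2, SD from the 2 libraries of each of the 4 groups).

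The genes around the cluster were examined because the cluster is a compact block of near-identical copies. Within 1 Mb of its ends or between its members the files list 145 other genes, of which 6 passed the filter on low values. The nearest tested genes on either side were Gm6900, 137 kb below the cluster, and Gm10179, 472 kb above it, and at 144 h they differed between the lines by 0.20 (adjusted p = 0.519) and 0.16 (adjusted p = 0.543) on the log2(TPM + 1) scale. Zik1, a zinc finger gene 299 kb below, differed by 0.07 (adjusted p = 0.743), and Zfp606, 864 kb above, by -0.33 (adjusted p = 0.0571). Zfp551, 801 kb above, was called lower in DNMT3ABKO cells at 72 h (-0.56, adjusted p = 0.0186) and 144 h (-0.48, adjusted p = 0.0282). Clcn4, the third tested gene below the cluster but 3493 kb away, differed by -0.23 (adjusted p = 0.186).

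Only 1 of the 44 genes listed between the members passed the filter, Gm45551, at 11478208 to 11479567 between Zscan4f and Zscan4-ps2. It rose with the family in DNMT3ABKO cells, from 1.10 ± 0.36 TPM (SD, n = 2) at 0 h to 4.2 ± 0.47 at 72 h and 17.9 ± 0.56 at 144 h, and stood at 0.0150, 0.0190 and 0.184 TPM in KH cells. The difference between the lines at 144 h was 4.0 (limma adjusted p = 1.23e-08), but Gm45551 too passed the filter only through the DNMT3ABKO libraries. Gm45551 shares 100-base windows with 7 of the 9 members, all but Zscan4d and Zscan4-ps1, so its reads cannot be told apart from theirs over those windows.

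**Figure D5:**
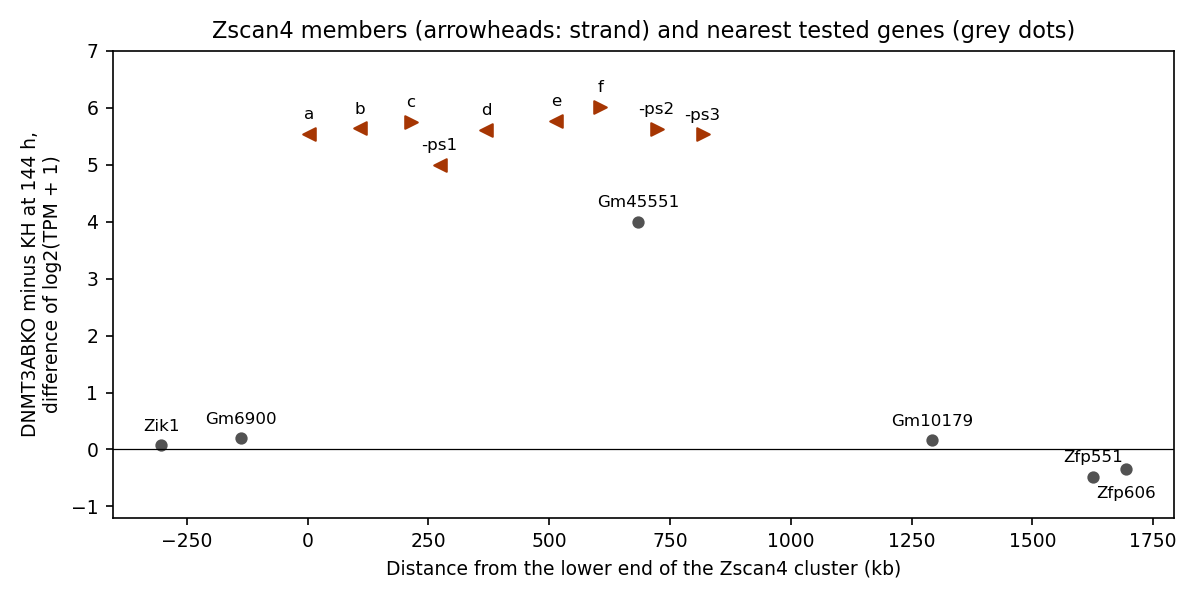
DNMT3ABKO minus KH at 144 h in log2(TPM + 1) for the 9 Zscan4 members (brown arrowheads, pointing along the strand) and the nearest tested genes (grey dots), against distance from the lower end of the cluster in kb. The members lie between 5.0 and 6.02, Gm45551 at 4.0, and the genes outside the cluster between -0.48 and 0.20. Clcn4, 3493 kb below, is outside the range drawn.

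For other genes named for the SCAN domain the differences between the lines were small beside those of the Zscan4 members. Of the 12 listed, 10 were tested, and none was called between the lines at 0 h or 72 h by limma, in either direction, where 4.92% and 9.26% of all tested genes were called higher and 4.14% and 10% lower, so that few calls among 10 genes would be a background count. At an unadjusted p under 0.05, 1 was lower in DNMT3ABKO cells at 0 h and 3 at 72 h, and none was higher. At 144 h, where 11% of all tested genes were called higher and 15.5% lower, only Zscan10, a pluripotency factor, was called by limma. It was lower in DNMT3ABKO cells (86.4 ± 4.4 against 109 ± 10.2 TPM, log2 difference -0.34, adjusted p = 0.0123). The highest of the 10 was Zscan18, at 15.7 ± 0.60 against 13.8 ± 0.07 TPM (0.17, adjusted p = 0.16), and the lowest Zscan2, at 1.40 ± 0.65 against 2.28 ± 0.17 TPM (-0.48, adjusted p = 0.177), with Zscan12 at 0.03 (adjusted p = 0.919). The median of the 10 at 144 h was -0.15, beside -0.04 over all tested genes. At 72 h against 0 h, where the Zscan4 members were lower in KH cells, 7 of the 10 were called higher in KH and 6 in DNMT3ABKO cells and none lower, with 28.3% and 34.3% of all tested genes called higher.

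Other genes of the 2-cell-like state were also higher in DNMT3ABKO cells. None of the 22 tested would have passed the filter over the 6 KH libraries alone, so, as for the Zscan4 members, their count of calls between the lines is no support in itself. By limma 21 were called higher at 0 h and 22 at both later times, where 4.92%, 9.26% and 11% of all tested genes were called higher, with medians of 1.64, 2.81 and 4.35 on the log2(TPM + 1) scale, and at 144 h they ran from 3.11 (Duxf3) and 3.40 (Tdpoz4, a paralogue of Spop) to 5.51 (Gm2016) and 5.77 (Gm5662). In KH cells none of the 22 was called at 72 h against 0 h by limma (none at an unadjusted p under 0.05 either), where 28.3% of all tested genes were called higher and 19.5% lower. Each of the 22 had a mean under 1 TPM over the KH libraries, so with a pseudocount of 1 TPM a fall could hardly be called. Whether they fell with the family at 72 h is thus not decided. At 144 h against 0 h 8 were called higher in KH cells, beside 27.4% of all tested genes. Against 72 h it was 9, beside 7.24%, and none was called lower in either comparison. Several of these genes have close paralogues among which reads can be split.

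Among the genes known to switch on Zscan4, Duxf3, which encodes the homeobox factor Dux, was called higher in DNMT3ABKO cells at 0 h (0.612 and 0.460 TPM against 0 and 0.0132 TPM, limma log2 difference 0.61, adjusted p = 0.00811). It was also higher at 72 h (3.38 and 3.88 against 0.0256 and 0.0556 TPM, 2.15, adjusted p = 6.52e-07) and at 144 h (8.55 and 9.0 against 0.177 and 0.0834 TPM, 3.11, adjusted p = 1.36e-08). In KH cells both Duxf3 values at 72 h were above both at 0 h, although no KH value exceeded 0.177 TPM and the difference was not called (0.05, adjusted p = 0.757). Dppa2 and Dppa4, which act upstream of Dux, were expressed in both lines at 65.1 TPM or more in every library. Dppa2 was called higher in DNMT3ABKO cells at 144 h only (184 ± 5.90 against 112 ± 0.44 TPM, 0.71, adjusted p = 0.0117), and at 0 h its knockout libraries stood at 65.1 and 104 TPM against 65.8 and 74.9 TPM in KH (0.23, adjusted p = 0.435). Dppa4 was called at 72 h (0.20, adjusted p = 0.0396) and at 144 h (0.27, adjusted p = 0.00719), and at 0 h the means were 109 ± 4.86 and 108 ± 1.11 TPM.

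Nelfa, a subunit of the negative elongation factor that can drive the 2-cell-like state, was called higher at 72 h (55.4 ± 0.11 against 43.6 ± 2.81 TPM, 0.34, adjusted p = 0.038) and at 144 h (95.8 ± 1.38 against 47.3 ± 1.04 TPM, 1.0, adjusted p = 5.52e-05) by limma. Dppa3 went the other way: it was called lower in DNMT3ABKO cells at 72 h (11.6 ± 1.06 against 34.9 ± 3.57 TPM, -1.51, adjusted p = 5.33e-06) and at 144 h (14.1 ± 0.69 against 25.6 ± 3.05 TPM, -0.82, adjusted p = 0.00033). Smarca5, a chromatin remodeller, stood at 121 ± 7.26 against 125 ± 3.03 TPM at 144 h (-0.05, adjusted p = 0.754). Of the 6 activators tested, 1 was thus called higher at 0 h, 3 at 72 h and 4 at 144 h, and Dppa3 was called lower at the last 2 times. Of all tested genes, 4.92%, 9.26% and 11% were called higher at these times, and 10% and 15.5% lower at the last 2. Duxf3, counted as higher at all 3 times, passed the filter only through the DNMT3ABKO libraries.

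The genes known to keep the 2-cell-like state off differed far less between the lines than the family did. Of 24 tested, 1 was called higher and 1 lower in DNMT3ABKO cells at 0 h, none at 72 h (2 higher and 1 lower at an unadjusted p under 0.05), and 6 lower and none higher at 144 h by limma. Of all tested genes, 4.92%, 9.26% and 11% were called higher at these times, and 4.14%, 10% and 15.5% lower. Among the 6 called lower at 144 h by limma were Ehmt1 (-0.46, adjusted p = 0.00215), Lin28a (-0.41, adjusted p = 0.00327), Ehmt2, Chaf1b and Daxx. The last 3 of these were named after their values were seen. Ehmt1 and Ehmt2 form the complex that dimethylates histone H3 at lysine 9, and Chaf1b is a subunit of the chromatin assembly factor CAF-1. Trim28, the corepressor of zinc finger proteins with a KRAB domain, stood at 1240.1 ± 46.4 against 1179 ± 11.4 TPM at 0 h (0.07, adjusted p = 0.489) and at 1284 ± 18.8 against 1174 ± 27.6 TPM at 144 h (0.13, adjusted p = 0.146). The highest 2 of the list at 144 h were Rif1 (0.17, adjusted p = 0.29) and Ncl (0.15, adjusted p = 0.138).

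Uhrf1 and Dnmt1, which maintain DNA methylation and whose proteins ZSCAN4 is reported to deplete, were not called between the lines at any time at the level of RNA. Uhrf1 stood at 255 ± 18.6 against 218 ± 9.12 TPM at 0 h (0.23, adjusted p = 0.0527), and at 227 ± 1.15 against 217 ± 1.27 TPM at 144 h (0.06, adjusted p = 0.506). Dnmt1 stood at 118 ± 1.79 against 104 ± 1.65 TPM at 0 h (0.18, adjusted p = 0.0975), and at 125 ± 1.26 against 133 ± 6.75 TPM at 144 h (-0.09, adjusted p = 0.296). The maintenance genes thus differed by at most 0.23 on the log2(TPM + 1) scale in the 3 comparisons of the lines, where the members differed by at least 2.34.

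Telomere and recombination genes were examined because of the family's known role. Of 24 tested, 3 were called higher and none lower in DNMT3ABKO cells at 0 h, 4 higher and 3 lower at 72 h, and 4 higher and 4 lower at 144 h by limma. Of all tested genes, 4.92%, 9.26% and 11% were called higher and 4.14%, 10% and 15.5% lower at these times, so the counts at 72 h and 144 h were near the background. Only 22 of the 24 would have passed the filter over the 6 KH libraries alone. Tcstv1 and Tcstv3 would not have, so the counts of higher genes, also at 0 h, are no support in themselves. Those with the largest differences at 144 h were Tcstv3 (4.27, adjusted p = 5.14e-09) and Tcstv1 (4.09, adjusted p = 2.23e-08), which are 2-cell-stage genes and also belong to the list of 2-cell-like genes. Tcstv3 stood at 2.41 and 1.60 TPM at 0 h, 4.26 and 4.81 TPM at 72 h and 21.1 and 22.6 TPM at 144 h in DNMT3ABKO cells, and at no more than 0.220 TPM in any KH library. The other genes called higher at 144 h were Smc1b, a meiotic cohesin subunit, and Majin, which tethers meiotic telomeres, and both were named after their values were seen. At the other end were Dmc1, the meiotic recombinase, at 7.16 ± 1.45 against 9.75 ± 0.73 TPM (-0.41, adjusted p = 0.0789), and Terf2, which encodes the shelterin protein TRF2, at 21.0 ± 1.27 against 27.4 ± 1.37 TPM (-0.37, adjusted p = 0.0086). The median of the 24 at 144 h was -0.11, beside -0.04 over all tested genes.

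The genes whose profile over the 12 libraries was most like that of the family sum were ranked by Pearson correlation of log2(TPM + 1), as a description in which all genes share the same libraries and the same 6 groups. The members themselves correlated with their sum at r between 0.979 (Zscan4-ps1) and 0.994 (Zscan4f). Leaving out the members and 10 genes with clone names, the 8 most similar of 15727 genes were Aass (0.976), Brsk2 (0.974), Usp17le (0.972), Catsperz (0.970), Zfy1 (0.969), Sobp (0.966), Hcn2 (0.965) and Fthl17b (0.965). All of these but Hcn2 averaged under 1 TPM over the KH libraries, so they passed the filter only through the DNMT3ABKO libraries. Their likeness to the family is thus no support in itself. The range of the 8 profiles differed widely. Usp17le, a deubiquitinase of the 2-cell-like list, rose from 4.32 ± 0.40 to 49.6 ± 2.59 TPM between 0 h and 144 h in DNMT3ABKO cells, whereas Aass, which encodes an enzyme of lysine breakdown, rose only from 1.36 ± 0.07 to 1.91 ± 0.02 TPM. Unlike the family, Aass was no higher at 72 h (1.25 ± 0.11 TPM) than at 0 h in these cells. Hcn2, a pacemaker channel gene, rose from 5.88 ± 0.02 to 8.42 ± 0.31 TPM. Zfy1, a zinc finger gene of the Y chromosome, stood between 0.0803 and 0.143 TPM in the KH groups and rose from 1.89 ± 0.59 to 5.47 ± 0.68 TPM in DNMT3ABKO cells.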

How the data were processed

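Total RNA of mouse ES cells was depleted of ribosomal RNA and sequenced in 12 libraries, 2 per group. Per the labels, reads were trimmed with cutadapt 2.4, aligned to mm10 with STAR 2.7.3a and quantified with StringTie 2.0, and the study's methods name GENCODE VM19 and other STAR and StringTie versions. The authors deposited TPM per gene, 1 library per file. Each library summed to 1000000 and no spike-in row was listed, so values are shares of a library's RNA, and depth is unknown.

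Rows repeating a gene identifier (9 to 16 per file) were summed. Genes averaging 1 TPM or more (15727) were fitted with limma 3.58.1 (R 4.3.3, lmFit and eBayes with trend) on log2(TPM + 1), with 6 group means and 11 contrasts, with Benjamini-Hochberg adjustment over all genes and a threshold of 0.05. The count test of the study's methods was not used, as TPM are not counts. With 2 libraries against 2 the test rests on the spread shared over groups and genes. The fit was also run on simulated data with the same spread per gene in all groups. That setting leaves out the wider spread of the DNMT3ABKO libraries at 0 h. The family sum, its log2 differences and correlations carry no test.

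The members, gene lists and alternatives were chosen with earlier results of these data known. Named genes were all members, Dnmt3a, Dnmt3b, 7 regulators (Dppa2, Dppa4, Duxf3, Trim28, Dnmt1, Uhrf1, Rif1), up to 2 highest and 2 lowest genes of each list at 144 h between lines, the 8 genes most similar in profile, and 3 tested genes on each side of the cluster. Other settings tried were 0.1 TPM as pseudocount, no filter, median-ratio scaling, only the groups compared, a replicate block, and leaving out each library. Annotation came from GENCODE M21, promoters from RefSeq (GRCm38.p6), which held 4 of the 9 members. Python 3.11.15, pandas 2.3.3, NumPy 2.4.6, Biopython 1.88 and matplotlib 3.10.9 were used.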

Additional observations from a re-analysis of the deposited data

Results flagged for a closer look

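All 9 Zscan4 members, and some genes named beside them, are listed here because their response to mTORi differed between the lines in limma's interaction term (adjusted p under 0.05). The difference is the DNMT3ABKO response minus the KH response from 0 h, on the log2(TPM + 1) scale. At 72 h it was Zscan4c 1.51, Zscan4f 1.84, Zscan4d 1.31, Zscan4b 1.25, Zscan4e 1.57, Zscan4-ps3 1.47, Zscan4a 1.61, Zscan4-ps1 1.33, Zscan4-ps2 1.66. At 144 h it was Zscan4c 2.51, Zscan4f 2.62, Zscan4d 2.54, Zscan4b 2.43, Zscan4e 2.53, Zscan4-ps3 2.67, Zscan4a 2.61, Zscan4-ps1 2.66, Zscan4-ps2 2.60. These values have the sign of a larger rise in DNMT3ABKO cells, and at 72 h they combine a rise in DNMT3ABKO cells with lower values in KH cells.

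Among the other named genes the difference at 72 h was Gm2016 2.00, Duxf3 1.54, Gm5662 2.29, Tcstv3 0.95, Tcstv1 0.94, Dppa3 -1.33, Gm45551 1.31, Dnmt3b 0.43. At 144 h it was Tdpoz4 2.44, Gm2016 3.48, Duxf3 2.51, Gm5662 3.64, Tcstv3 2.76, Tcstv1 2.45, Nelfa 0.96, Dppa3 -0.64, Gm45551 2.96. Dppa3 was the exception in direction, having fallen further in DNMT3ABKO cells. The 10 fibroblast markers summed to less in DNMT3ABKO than in KH cells at 72 h and 144 h, and their part in these differences was not tested.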

How the results depend on the processing

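Of 963 values of single members under the alternatives, 935 kept their direction and their side of the threshold, 22 were no longer called, 6 became called and none changed sign. Only 8 of those 28 lay outside KH 72 h against 0 h. For that comparison 4 members were called, 8 with a pseudocount of 0.1 TPM, 1 without the filter on low values, and 1 to 4 without 1 library. In the other 10 comparisons 8 or 9 members were called under every alternative.

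The family sum kept its direction throughout. Median-ratio scaling moved DNMT3ABKO 144 h against 72 h from 2.23 to 2.30 on the log2 scale. Division by ES cell markers, added after the data were seen, moved KH 72 h against 0 h from -1.49 to -2.05, KH 144 h against 0 h from 1.90 to 1.30, and DNMT3ABKO 72 h against 0 h from 1.30 to 0.76. For DNMT3ABKO at 144 h it moved the difference to 0 h from 3.53 to 2.90 and that to 72 h from 2.23 to 2.14. Without 1 library, the sum at 144 h differed between lines by 6.24 to 6.61.

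With the replicate number as a block 4 members were called for KH 72 h against 0 h and 9 in each of the other 10 comparisons, as without it. The study states that time points of a biological replicate were handled in parallel, without tying this to the numbers in the labels, so pairing was not assumed. Deviations of same-numbered libraries correlated between groups at -0.10 to 0.34, over 0.1 in 2 of 15 pairs of groups and over 0 in 11. Calls over all genes with the block were 0.928 to 1.02 times those without. Depth is unknown, so the precision of the KH values, mostly under 1 TPM, could not be given.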
